A study of Mus musculus with 461 samples.

Results

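The kinesin genes were taken as all genes of the expression table whose symbol is Kif followed by a number and, in some, a letter from a to c. The rule found 37 genes, beside 31673 genes in the separate table of counts. By their textbook roles 11 were sorted as mitotic kinesins, 13 as transport kinesins, 6 as kinesins of the cilium and its signalling, and 7 as other. Kif2b and Kif12 had no count in any cell, and the other 35 entered the tests. They were followed through a course named 7F, in which mouse embryonic fibroblasts are driven towards pluripotency, in 461 single cells captured on the Fluidigm C1 system at days 0, 1, 3, 4, 5 and 7. The fibroblasts were of the OG2 transgenic strain (a green reporter driven by Oct4) on a mixed background of 129SVJ, C57B6 and CBA. Fibroblasts were kept in medium with 10% serum and reprogramming cells in iCD1 medium. No label lists what was transduced. As published, the 7F set comprises Sall4, Esrrb, Nanog, Glis1, Jdp2, Jhdm1b (Kdm2b) and Mkk6 (Map2k6). Transcripts of 6 of them, all but Glis1, were already at 332.7 CPM or more in both day 0 sets, so the day 0 cells carried factor transcripts, and Map2k6 was at 3.84 CPM at day 4. CPM are counts per 1000000 after scaling between sets.

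The titles carry a prefix, b1, b2 or b3, whose meaning the labels do not give. All cells of a prefix and a day form a set, which served as the sample. Day 0 had 20 cells of b1 and 54 of b2, day 1 had 58 of b2, day 3 had 61 of b1 and 58 of b2, day 4 had 59 of b3, day 5 had 79 of b2 and day 7 had 65 of b2. A further 5 cells of b1 at day 5 and 2 at day 7 were too few to serve as sets. Only day 4 held b3, and its effect and that of b3 cannot be told apart. Summed counts of the 8 sets ran from 58.4 M to 208.9 M (M, 1000000 counts), and the median count per cell from 0.983 M at day 4, where 31 of 59 cells had under 1 M, to 3.31 M in b2 at day 0. No pair of cells had identical counts. The 6 fibroblast markers summed to 2525 and 2606 CPM at day 0 and to 76.3 CPM at day 7, and the 4 pluripotency markers to 0.417 CPM or less at day 0 and 2920 CPM at day 7. Epithelial markers (4 genes) summed to 53.8 to 669.8 CPM over the sets, endothelial markers (4 genes) to 2.75 to 77.97 CPM, blood markers (5 genes) to 1.30 to 19.9 CPM and markers of multiciliated cells (3 genes) to 0.879 to 6.52 CPM.

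Kinesins are motor proteins that move along microtubules or take them apart, using ATP. A mitotic group builds the spindle, moves chromosomes and divides the cell, and its transcripts are made in late S, G2 and M phase. A transport group carries vesicles, organelles and RNA towards the cell periphery in all cell types, with some members abundant in neurons. A cilium group moves or limits the parts of the primary cilium and of Hedgehog signalling.

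Levels are given as TPM, a scale per 1000000 transcripts that corrects for transcript length, and members differed widely. Kif5b, the heavy chain of ubiquitous kinesin-1, was the most abundant member at 140 ± 24.1 TPM (mean ± SD of 8 set means). Next came the chromosome motor gene Kif22 at 65.9 ± 31.9, the microtubule depolymerase gene Kif2a at 59.01 ± 14.6, the organelle motor gene Kif1b at 39.9 ± 12.4 and the cytokinesis gene Kif20a at 39.3 ± 22.3 TPM. The gap between Kif5b and Kif22 was larger than either SD, while Kif22 and Kif2a, and Kif1b and Kif20a, lay within 1 SD of each other. The step from Kif2a to Kif1b was larger than the SD of either. The next members, Kif2c, Kif23, Kif20b, Kif3a, Kif11 and Kif18a, followed at 29.5 to 19.1 TPM and overlapped in the same way. At the low end, 10 genes had a mean under 1 TPM, among them the neuronal kinesin-1 gene Kif5a (0.798 TPM) and the dendrite motor gene Kif17 (0.451 TPM). Estimated counts were not whole numbers in 98.5% of the cells with Kif5b, 96.6% with Kif18a, 93.9% with Kif24, 92.3% with Kif11 and 89.8% with Kif1b, so these levels depend on how shared reads were divided and are uncertain. For Kif20a and Kif15 that share was 68.2% and 66.9%.

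**Figure D1:**
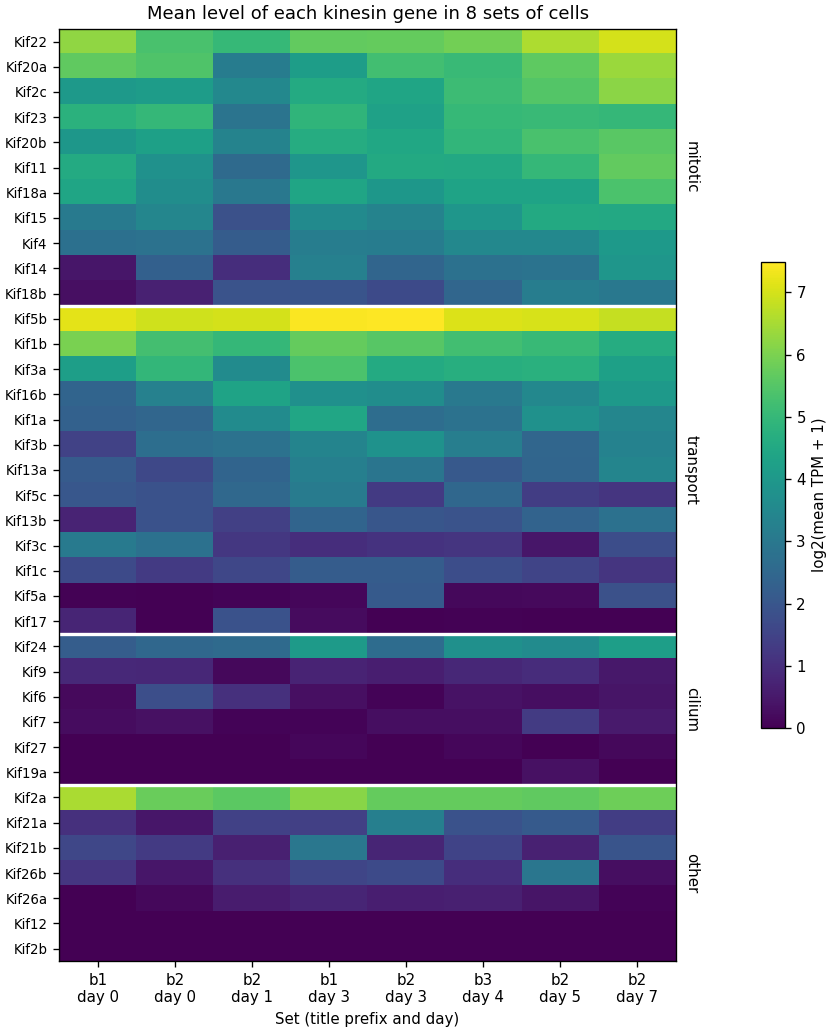
Mean level of 37 kinesin genes in 8 sets of cells, as log2(mean TPM + 1) in colour, with genes in rows (mitotic, transport, cilium and other, each by mean level) and sets in columns. Most mitotic rows are darkest in the day 1 column and brightest at day 7, while Kif5b is bright in every set.

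The summed level of the mitotic kinesins was lowest at day 1 and highest at day 7. It averaged 237 TPM per cell in b1 and 191 TPM in b2 at day 0, 86.8 TPM at day 1, 208 TPM in both sets of day 3, 262 TPM at day 4, 355 TPM at day 5 and 508 TPM at day 7. Day 1 was therefore below, and days 4, 5 and 7 were above, both sets of day 0. As a share of all kinesin TPM they made up 40.3% and 40.01% at day 0, 23.7% at day 1, 32.5% and 36.2% at day 3, 46.4% at day 4, 54% at day 5 and 63.6% at day 7. The transport kinesins held 251 and 222 TPM per cell at day 0, 222 TPM at day 1, 334 and 296 TPM at day 3, 231 TPM at day 4, 228 TPM at day 5 and 212 TPM at day 7. Their lowest and highest sets differ far less than those of the mitotic group. The small sets of b1 had 313 TPM of mitotic kinesins at day 5 (5 cells) and 407 TPM at day 7 (2 cells), with no test.

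**Figure D2:**
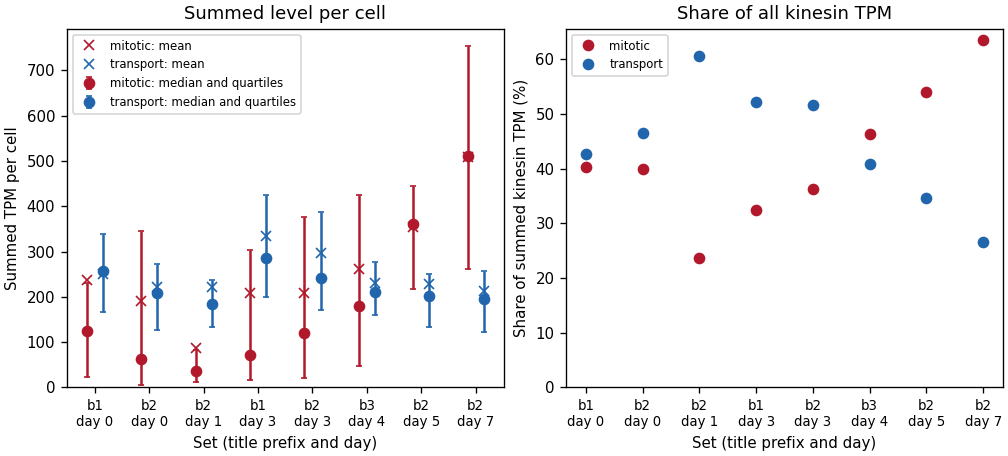
Left, summed TPM per cell of 11 mitotic (red) and 13 transport (blue) kinesins in 8 sets, with dots for the median, bars for the quartiles over cells and crosses for the mean. Right, the share of all kinesin TPM held by each group in percent; the mitotic share is 23.7% at day 1 and 63.6% at day 7.

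In the test of sets against day 0 (edgeR quasi-likelihood test, Benjamini-Hochberg adjustment over 22378 genes), few kinesins passed an adjusted p of 0.05. At day 1, 1 of 35 (2.86%) was called, against 1.18% of all genes, and at day 3 1 of 35, against 3.14%. At day 4 none was called, against 3.03% of all genes, with 3 of 35 at an unadjusted p under 0.05, beside 2302 of all 22378 genes. At day 5, 1 of 35 was called, against 4.73%, and at day 7 3 of 35 (8.57%), against 6.6%. These shares are near the background of all genes. DESeq2 on the same sums called 2, 4, 1, 4 and 5 kinesins at days 1, 3, 4, 5 and 7, against 3.2%, 6.97%, 5.51%, 9.6% and 12.9% of all genes. No kinesin was called at any day by limma on log2(TPM + 1), nor with the 7 b1 cells of days 5 and 7 added as 2 more sums. Each call named here is thus lost in both. Limma tested genes with a mean of 1 TPM or more in a set, which leaves out Kif9, Kif19a, Kif26a and Kif27. Of all 17892 genes it tested, limma called 0 at days 1, 3, 4 and 5, where 1316, 2051, 2078 and 2708 had an unadjusted p under 0.05. Days 1, 4, 5 and 7 had 1 set each, and a p rests on the spread between the sets of days 0 and 3 shared over all genes.

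Of the 11 mitotic kinesins 10 were lower at day 1 than at day 0 by the fitted value, with a median log2 fold change of −0.93, beside 0.00 over all genes. At day 3 the median was −0.06 (0.11 over all genes), with 4 members above 0 and 7 below. At day 4 it was 0.51, at day 5 0.97 with 9 of 11 above 0, and at day 7 1.33 with 10 of 11 above 0, beside 0.00 over all genes each time. Among them 1 was called at day 1 (lower) and 2 at day 7 (higher).

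**Figure D3:**
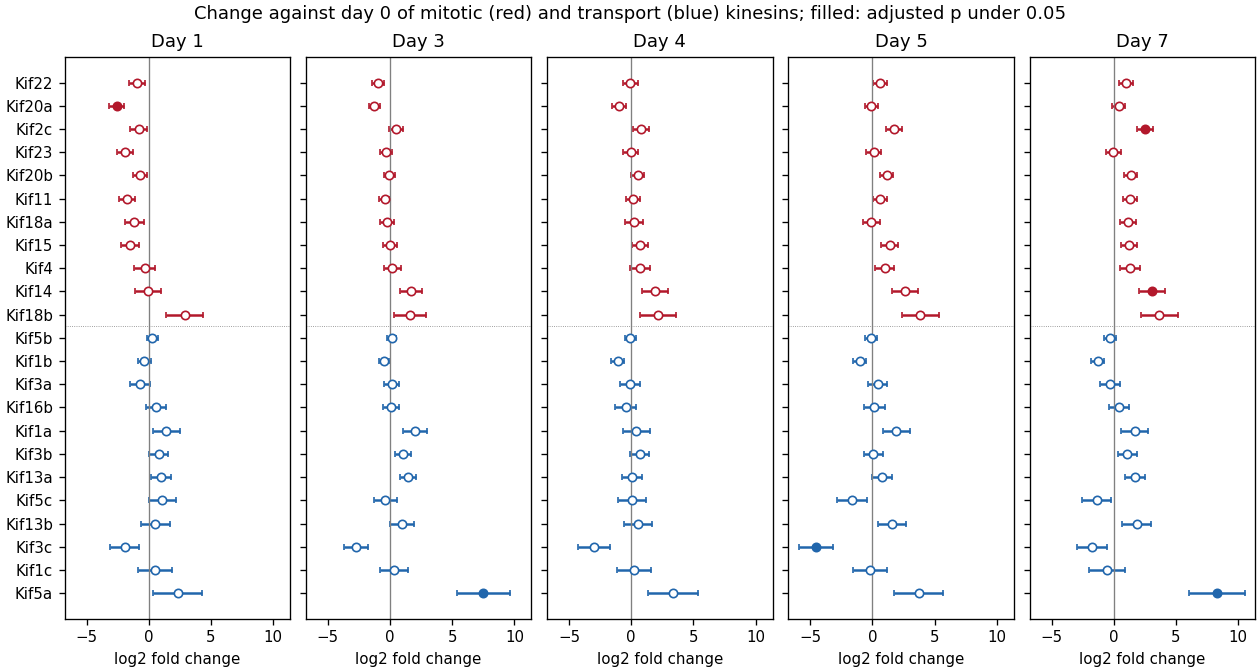
Fitted log2 fold change against day 0 (horizontal axis, bars are standard errors) of 11 mitotic (red) and 12 transport (blue) kinesins in 5 panels by day; filled points had an adjusted p under 0.05. Kif17 is left out because it had no count at days 5 and 7. Red points lie mostly left of 0 at day 1 and right of 0 at day 7.

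Cytokinesis motors bundle and position the midzone between separating chromosomes. Kif20a, which brings the chromosomal passenger complex to the midzone, was at 158.8 and 145 CPM in b1 and b2 at day 0, 25.2 at day 1, 40.5 and 86.8 at day 3, 78.5 at day 4, 142.5 at day 5 and 199 CPM at day 7. Day 1 was the lowest set, and only day 7 lay above both day 0 sets. At day 1 Kif20a fell by 2.59 ± 0.61 on the log2 scale (SE; edgeR adjusted p = 0.00379). Its adjusted p was 0.064 without the highest cell of each set. In b2 Kif20a was found (TPM of 1 or more) in 51.9% of cells at day 0 and 41.4% at day 1, while the level that 1 cell in 10 exceeded was 104.8 TPM and 20.4 TPM.

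Kif23, a subunit of centralspindlin, was at 26.7 and 30.4 TPM at day 0, 6.29 at day 1, 29.02 and 18.4 at day 3, 31.3 at day 4, 32.6 at day 5 and 30.4 TPM at day 7. Outside day 1 its sets differed little, and at day 7 its log2 fold change was −0.02 ± 0.61. At day 1 it was −1.92 ± 0.67 (edgeR adjusted p = 0.188), and DESeq2 called it (adjusted p = 0.0104). Kif14, which recruits citron kinase to the midbody, was at 1.67 and 7.25 CPM at day 0, 4.28 at day 1, 15.8 and 13.2 at day 3, 16.5 at day 4, 28.1 at day 5 and 37.99 CPM at day 7. All sets from day 3 on lay above both day 0 sets. Kif14 rose at day 7 by 3.09 ± 1.05 (edgeR adjusted p = 0.0483), found in 15% and 14.8% of day 0 cells and in 64.6% of day 7 cells. The adjusted p was 0.22 without the b1 set of day 0, 0.131 or 0.123 without either set of day 3, 0.0507 with no filter on low counts and 0.0594 without cells under 1000000 counts. Kif20b, also a midzone motor, stood at 1.38 ± 0.52 at day 7 without a call (edgeR adjusted p = 0.0935).

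Spindle motors push the poles apart. Kif11, the plus-end motor of the bipolar spindle, was at 90.04 and 56.1 CPM at day 0, 21.8 at day 1, 33.5 and 73.9 at day 3, 82.1 at day 4, 113.9 at day 5 and 183 CPM at day 7. The sets of day 7 and day 5 were the highest and that of day 1 the lowest, yet neither day 1 (−1.75 ± 0.62, edgeR adjusted p = 0.213) nor day 7 (1.33 ± 0.55, 0.153) was called. Each was called when 1 day 0 set was left out: day 1 without b2 (−2.05, 0.0242) and day 7 without b1 (1.71, 0.0484). Kif15, which can share that task, stood at −1.51 at day 1 and 1.22 at day 7 without a call.

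Chromosome motors bind chromosome arms or kinetochores. Kif22, the chromokinesin that pushes arms to the spindle equator, was at 74.1 and 39.1 TPM at day 0, 31.5 at day 1, 50.8 and 51.4 at day 3, 58.4 at day 4, 94.4 at day 5 and 128 TPM at day 7. Its day 7 value was the highest of the 8 sets, but 1 cell held 51.5% of the b1 counts of day 0, and the change was 0.99 ± 0.57 (edgeR adjusted p = 0.403). Without that set it was 1.91 (0.0324). Kif4, the chromokinesin of the midzone and of condensed chromosomes, ran from 3.52 TPM at day 1 to 15.6 TPM at day 7 and stood at 1.34 ± 0.80 at day 7.

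Depolymerases shorten microtubules at kinetochores. Kif2c, which corrects wrong attachments, was at 11.5 and 38.1 CPM at day 0, 14.1 at day 1, 33.7 and 35.1 at day 3, 42.25 at day 4, 81.5 at day 5 and 144 CPM at day 7. Days 4, 5 and 7 lay above both day 0 sets, which themselves differed widely. Kif2c rose at day 7 by 2.54 ± 0.63 (edgeR adjusted p = 0.00205, DESeq2 0.00602). In TPM it was at 15.4 and 16.5 at day 0, 10.2 at day 1, 22.96 and 20.1 at day 3, 34.1 at day 4, 43.9 at day 5 and 72.4 at day 7. The value of limma on log2(TPM + 1) was 2.11 (adjusted p = 0.0666). Kif18a, which damps chromosome movements, had a fitted value of 1.15 ± 0.68 at day 7. Its relative Kif18b was low, at 0.593 and 1.76 CPM at day 0, and 14.9 CPM at day 7 (3.66 ± 1.5, edgeR adjusted p = 0.148, DESeq2 0.00313). Kif18b was the only mitotic member above 0 at day 1, at 2.89 ± 1.48.

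The promoters of these genes are of interest because cell cycle genes with peak transcription in G2 and M often carry a cell cycle genes homology region (CHR), bound by DREAM and MuvB complexes, near the start, with CCAAT boxes, bound by NF-Y, upstream of it. RefSeq promoter windows of build GRCm38.p6, each 300 bases long with 250 before the start, matched 31 of the 37 genes. The letters TTTGAA (CHR) and CCAAT were sought on both strands, and in the kinesin windows no match of one overlapped a match of the other. Of the 11 mitotic genes 10 had a window and Kif20a had no window. The 12 transport windows came from 10 of 13 genes. TTTGAA was in 9 of the 10 mitotic windows, that of Kif18a being the exception, and in 1 of 12 transport windows, for Kif1a. Of all 32851 windows 17.9% hold it. Within 30 bases of the start, a distance chosen after the positions were seen, it lay in 7 of 10 mitotic windows (Kif11, Kif15, Kif18b, Kif20b, Kif22, Kif23 and Kif4), in none of the 12 transport windows and in 2.9% of all windows. CCAAT was in 6 of 10 mitotic windows, in 4 of 12 transport windows and in 37.4% of all. A match is a description of letters and not a bound site.

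The 100 bases before the start of 3 mitotic genes with TTTGAA upstream of the start, and of a transport gene that has CCAAT alone, are shown 5′ to 3′ on the gene's strand, with matches of either motif in capitals (TTCAAA and ATTGG are the motifs on the opposite strand). They lie at chr19:37376282-37376381 (+) for Kif11, chr9:122950981-122951080 (+) for Kif15, chr7:127042421-127042520 (−) for Kif22 and chr2:153291316-153291415 (+) for Kif3b.
Kif11: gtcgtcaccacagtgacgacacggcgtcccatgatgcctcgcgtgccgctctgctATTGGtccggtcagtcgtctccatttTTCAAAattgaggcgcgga
Kif15: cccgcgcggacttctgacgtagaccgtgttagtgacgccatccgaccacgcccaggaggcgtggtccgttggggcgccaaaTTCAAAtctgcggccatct
Kif22: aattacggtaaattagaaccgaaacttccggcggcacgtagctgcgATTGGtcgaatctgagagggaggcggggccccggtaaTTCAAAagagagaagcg
Kif3b: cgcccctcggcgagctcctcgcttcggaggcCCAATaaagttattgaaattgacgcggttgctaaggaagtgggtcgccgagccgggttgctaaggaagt
The CHR match begins 19 bases before the start in Kif11 and Kif15 and 17 bases before it in Kif22, and the CCAAT match lies 45 bases before the start in Kif11 and 54 in Kif22.

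Transport kinesins had no direction common to all days. Their median log2 fold change was 0.59 at day 1, 0.14 at day 3, 0.03 at day 4, 0.07 at day 5 and −0.29 at day 7, beside 0.00 over all genes (0.11 at day 3), and 1 was called at each of days 3, 5 and 7. The day 7 median was 0.60 without the b2 set of day 0. With Kif17 at the bound of 3 counts the medians of days 5 and 7 were the same. Of the 12 transport members with at least 10 CPM in a set, 8 were higher in b2 at day 1 than in b2 at day 0. In b2 it was 7 at day 3, 5 at day 5 and 6 at day 7, and in b1 9 at day 3. Kif5b, of ubiquitous kinesin-1, was at 144.6 and 121 TPM at day 0, 127 at day 1, 175 and 178 at day 3, 134 at day 4, 129.7 at day 5 and 113 TPM at day 7. It was found in 97.5% to 100% of the cells of every set, and no comparison called it, the fitted values lying between −0.29 and 0.29.

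Kif1b, which carries mitochondria and synaptic vesicle precursors, was at 61.5 and 36.7 TPM at day 0, 30.7 at day 1, 52.1 and 45.5 at day 3, 36.4 at day 4, 31.8 at day 5 and 24.04 TPM at day 7. Day 7 was the lowest of its sets, at −1.30 ± 0.53 against day 0 (edgeR adjusted p = 0.149). Without the b2 set of day 0 that difference was called (−1.48, 0.042). Kif3a, a motor subunit of kinesin-2 in cilium assembly and transport, ran from 11.3 TPM at day 1 to 39.9 TPM in b1 at day 3, with 17.2 and 30.3 TPM at day 0, 23.1 TPM in b2 at day 3, 25.1 at day 4, 25.9 at day 5 and 18.1 at day 7. Its sets do not order by day. Kif16b, of early endosomes, was at 4.37 and 8.69 TPM at day 0, 19.3 at day 1, 12.6 and 11.8 at day 3, 7.16 at day 4, 10.3 at day 5 and 15.2 TPM at day 7, and 1 cell held 93.6% of its b1 counts at day 0.

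Kif3c, a kinesin-2 subunit enriched in neurons, was at 36.5 and 44.5 CPM at day 0, 10.49 at day 1, 4.56 and 7.485 at day 3, 4.98 at day 4, 1.74 at day 5 and 12.1 CPM at day 7. Every later set lay below both day 0 sets. At day 5 Kif3c fell by 4.54 ± 1.40 on the log2 scale (edgeR adjusted p = 0.029). Few cells carried it: 25% and 18.5% of day 0 cells and 5.06% of day 5 cells had a TPM of 1 or more, and 1 cell held 64.5% of the b1 and 52.8% of the b2 counts of day 0. With the top cell of each set left out, the value was −4.52 and the adjusted p 0.113. Without b1 or b2 of day 3 the adjusted p was 0.0687 or 0.0746.

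Kif5a, the neuronal heavy chain of kinesin-1, had 5 counts in b1 and 1 in b2 at day 0, 0.0898 and 0.00662 CPM. It was at 0.224 CPM at day 1, 0.284 and 15.9 at day 3, 0.448 at day 4, 0.579 at day 5 and 13.8 CPM at day 7. The b2 set of day 3 and the day 7 set were far above the other 6. Kif5a rose at day 3 by 7.51 ± 2.13 (edgeR adjusted p = 0.018) and at day 7 by 8.28 ± 2.26 (0.00696). The day 3 rise was that of 1 set, since without b2 of day 3 it was 2.66 and the adjusted p was 1, and 1 of its cells held 64.7% of the counts. The day 3 call was also lost without the highest cell of each set (adjusted p = 0.0981) and without b2 of day 0 (0.123). The day 7 call was lost without b2 of day 0 (0.0519) or without b2 of day 3 (0.131).

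At day 7 Kif5a was found in 11 of 65 cells (16.9%), of which 1 held 22.3% of the counts. At day 3 it was found in 4 of 58 b2 cells and 1 of 61 b1 cells. It was found in 0 of 54 b2 cells of day 0, which by the limit of 3 cells of the total allows a share of up to 5.56% at that threshold. That set held 1 count of Kif5a, so the limit is not one on cells with any Kif5a. The 8 neuron markers summed to 63.5 and 28.1 CPM at day 0, 136 at day 1, 233 and 320 at day 3, 54.99 at day 4, 259 at day 5 and 281 CPM at day 7. Their sum was thus also high in sets with little Kif5a, those of day 1, b1 of day 3 and day 5. Nefl, Stmn2 and Tubb3 were called higher at day 7 (5.01, 2.96 and 3.15), and Nefl, Nefm and Stmn2 at day 3 (5.63, 5.17 and 1.98). At day 3 the markers without a call were Snap25 at −5.56, Dcx at −0.24, Map2 at 1.06, Tubb3 at 1.07 and Rbfox3 at 6.87. At day 7 they were Snap25 at −2.08, Map2 at −0.29, Nefm at 1.32, Dcx at 8.56 and Rbfox3, which had no count there. Dcx and Rbfox3 were low: Dcx was at 1.92 CPM at day 7, and Rbfox3 at 0.203 CPM in b1 at day 3. Of the 11 day 7 cells with Kif5a, 11 also had Stmn2, which 43 of 65 cells had, and 9 had Tubb3, which 40 had. Nefl was in 5 of the 11 and in 19 of 65, Nefm in 1 of the 11 and in 11 of 65, and Map2 in 1 of the 11 and in 9 of 65. None of the 11 had Snap25 or Dcx, and Rbfox3 was found in no day 7 cell. Of the 4 b2 cells of day 3 with Kif5a, 4 had Nefm, which 35 of 58 cells had. Stmn2 was in 1 of the 4 and in 28 of 58, and Tubb3 in 1 of the 4 and in 7 of 58. None of the 4 had Nefl, Map2, Snap25, Dcx or Rbfox3. The part of neurons in the Kif5a result was not tested.

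The remaining transport members had no call in edgeR. Kif5c, also neuronal in abundance, was found in 35% and 20.4% of day 0 cells, 44.8% at day 1, 36.1% and 20.7% at day 3, 33.9% at day 4, 8.86% at day 5 and 7.69% at day 7, and stood at −1.37 ± 1.19 at day 7. Kif1a, a carrier of synaptic vesicle precursors, ranged from 4.06 to 20.5 TPM over the sets, and Kif3b, the partner of Kif3a, from 1.80 to 13.2 TPM. The vesicle motor genes Kif13a, Kif13b and Kif1c ranged from 2.09 to 9.63, 0.690 to 5.88 and 1.21 to 3.56 TPM. DESeq2 called Kif13a and Kif1a higher at day 3 and Kif13a higher at day 7. Kif17 was found in 2 b1 cells of day 0, 1 cell of day 1 and 1 b1 cell of day 3. It had 62 counts in b1 and 1 in b2 at day 0 and none at days 5 and 7, so of these sets only b1 of day 0 lay above the floor of 3 counts, and it had no call. At day 1 1 cell held 99.2% of its 370 counts.

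The number of transport members in a cell had its highest medians at days 1 to 4. The median number found was 5 and 4 of 13 at day 0 (b1 and b2), 6 at day 1, both sets of day 3 and day 4, 4 at day 5 and 5 at day 7. After thinning each cell to 300000 counts it was 5 and 4.5, then 7, 6 and 6, 7, 4 and 5. No cell of the 8 sets lacked all transport kinesins.

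Cilium and other members were mostly low and none was called on any day by edgeR. DESeq2 called Kif26b at day 5. Kif24, which limits cilium growth, led its group at 3.63 and 4.70 TPM at day 0, 4.95 at day 1, 15.8 and 5.26 at day 3, 12.4 at day 4, 11.2 at day 5 and 17.3 TPM at day 7. The Hedgehog regulator gene Kif7 was at 0.185 and 0.255 TPM at day 0, 0.0419 at day 1, 0.0585 and 0.222 at day 3, 0.210 at day 4, 1.44 at day 5 and 0.470 TPM at day 7. The motile cilium gene Kif9 was at 0.828 and 0.769 TPM at day 0, 0.124 at day 1, 0.667 and 0.556 at day 3, 0.768 at day 4, 0.930 at day 5 and 0.410 TPM at day 7. Kif6, also of motile cilia, was at 0.143 and 2.48 TPM at day 0, 1.07 at day 1, 0.237 and 0.0417 at day 3, 0.3 at day 4, 0.204 at day 5 and 0.335 TPM at day 7. Kif6 and Kif9 were found in at most 11.1% and 11.9% of the cells of a set, and in the b2 set of day 0 1 cell held 86.8% of the Kif6 counts. Kif7 was found in 18.99% of day 5 cells, where 1 cell held 53.7% of its counts. Kif19a, a regulator of cilium length, and Kif27 were each found in 3 cells of the 8 sets together. Kif2a, a depolymerase of neurons and spindles, was at 91.2 and 54.2 TPM at day 0, 47.97 at day 1, 69.8 and 51.4 at day 3, 52.1 at day 4, 49.9 at day 5 and 55.5 TPM at day 7, the b1 set of day 0 being the highest. Kif21a and Kif21b, which limit microtubule growth, each had 1 high set of day 3. Kif21a was at 1.06 and 0.378 TPM at day 0, 1.74 at day 1, 1.66 and 8.39 at day 3, 2.66 at day 4, 3.35 at day 5 and 1.59 TPM at day 7. Kif21b was at 2.004 and 1.39 TPM at day 0, 0.593 at day 1, 6.86 and 0.701 at day 3, 1.83 at day 4, 0.623 at day 5 and 2.82 TPM at day 7. Kif21a was thus high in b2 and Kif21b in b1. Kif26b was at 1.26 and 0.368 TPM at day 0, 1.07 at day 1, 1.96 and 2.20 at day 3, 0.955 at day 4, 6.68 at day 5 and 0.219 TPM at day 7. Kif26a stayed at or under 0.701 TPM.

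Seen per cell, the share of cells with most of the mitotic kinesins was highest in the sets of days 5 and 7. Cells with 6 or more of the 11 mitotic kinesins, a number chosen for this description, made up 45% (95% exact interval 23.1 to 68.5) and 33.3% (21.1 to 47.5) of day 0 cells in b1 and b2. They made up 31.03% (19.5 to 44.5) at day 1, 42.6% (30.04 to 55.9) and 41.4% (28.6 to 55.1) at day 3, 69.5% (56.1 to 80.8) at day 4, 84.8% (74.97 to 91.9) at day 5 and 81.5% (69.97 to 90.1) at day 7. The intervals cover counting error only. Days 5 and 7 had 1 set each, so the difference between days was not tested. Without cells under 1000000 counts the day 4 share was 78.6%, over 28 cells. With cells thinned to 300000 counts the shares were 45%, 33.3%, 37.9%, 42.6%, 43.1%, 74.6%, 87.3% and 87.7% in the same order. Across cells of a set, the rank correlation of the number of mitotic kinesins with the total count lay between −0.327 and 0.114.

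**Figure D4:**
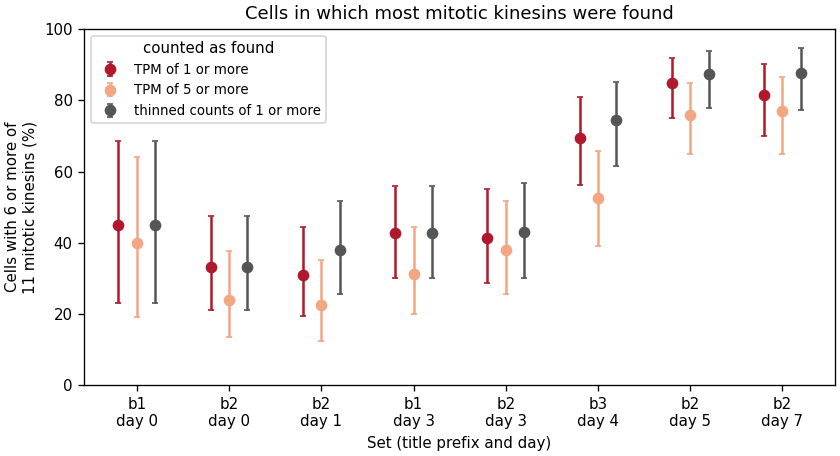
Share of cells in each of 8 sets with 6 or more of 11 mitotic kinesins, in percent, with exact 95% intervals as bars, under 3 definitions of a gene being found. Days 5 and 7 lie above days 0, 1 and 3 under each definition.

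Day 1 differed from day 0 more in level than in the share of such cells. In b2 the share was 33.3% at day 0 and 31.03% at day 1, and cells with none of the 11 numbered 8 of 54 and 4 of 58. The median summed mitotic level was 62.7 and 37.4 TPM, and the upper quartile 345 and 82.5 TPM. The upper quartile thus differed more than the median. Kif11 was found in 38.9% of b2 cells at day 0 and 39.7% at day 1, with 51.1 and 17.7 TPM as the level that 1 cell in 10 exceeded, and Kif23 in 33.3% and 39.7%, with 107.0 and 20.1 TPM.

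Mitotic kinesins varied together across the cells of a set and transport kinesins did not. Among members found in at least 20% of cells, the median rank correlation of mitotic pairs was 0.41 in b1 and 0.58 in b2 at day 0, 0.37 at day 1, 0.48 and 0.52 at day 3, 0.56 at day 4, 0.25 at day 5 and 0.30 at day 7. Pairs of transport kinesins had medians of −0.02 to 0.10, and mitotic with transport members −0.08 to 0.03. The 20 to 79 points of a set share their prefix and day, and these values are a description. The highest pairs were Kif11 with Kif20a (0.84, b1 at day 0) and Kif4 with Kif15 (0.79, b2 at day 0). The number of mitotic kinesins in a cell correlated with the proliferation gene Mki67 at 0.72 and 0.75 in the day 0 sets, and at 0.46 and 0.28 at days 5 and 7, where most cells had most members.

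**Figure D5:**
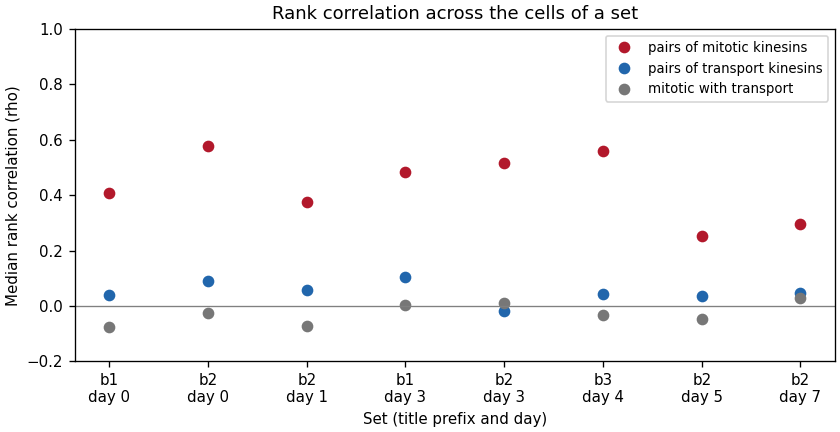
Median rank correlation (vertical axis) across the cells of each of 8 sets, for pairs of mitotic kinesins (red), pairs of transport kinesins (blue) and mitotic with transport (grey). Red points lie at 0.25 to 0.58 and the others at −0.08 to 0.10.

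Between prefixes, days 0 and 3 allow a comparison of b2 with b1, additive with day. None of 35 kinesins was called by edgeR, against 0.0589% of 22062 genes, nor by DESeq2, against 2.55%. In each, 2 had an unadjusted p under 0.05, beside 1076 of the 22062 genes in edgeR and 2283 in DESeq2. Those 2 in edgeR were Kif3b, higher in b2 (6.83 and 34.2 CPM at day 0, 31.8 and 52 at day 3 in b1 and b2), and Kif17, lower in b2 (1.11 and 0.00662, then 0.340 and 0 CPM). The medians were 0.25 for mitotic and 0.10 for transport members, beside 0.04 over all genes. The change from day 0 to day 3 differed between prefixes for single members, with no test. Kif11 went from 90.04 to 33.5 CPM in b1 and from 56.1 to 73.9 in b2, and Kif2c from 11.5 to 33.7 in b1 and from 38.1 to 35.1 in b2.

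Other genes of the machinery were counted in lists. Of 10 motors and partners outside the rule 1 was called at each of days 5 and 7, against 4.73% and 6.6% of all genes. Kifc2, a C-terminal motor gene, rose at day 5 (6.41 ± 1.93, edgeR adjusted p = 0.0241) and at day 7 (7.43 ± 2.01, 0.00599), from 0.234 and 0.0199 CPM at day 0 to 10.3 and 21.1 CPM. Of 14 spindle and midzone genes, 3 (21.4%) rose at day 7, against 6.6% of all genes: the checkpoint kinase gene Bub1 (2.38 ± 0.61), the midzone exchange factor gene Ect2 (1.80 ± 0.57) and the kinetochore gene Kntc1 (2.95 ± 0.94). Their list median was −0.59 at day 1 with all 14 below 0, and 1.04 at day 7 with all 14 above 0. DESeq2 also called Kifc2 at day 4 and Kifc1, Kifc3 and Kifc5b, other C-terminal motor genes, at day 7. The edgeR values of these 3 at day 7 were 3.92, −2.11 and 8.21. Kifc3 was thus lower, at 24.6 and 27.03 CPM at day 0 and 5.98 CPM at day 7. The 6 cell cycle genes had medians of −0.46 and 0.84 with none called in edgeR or DESeq2, though 1 and 2 had an unadjusted p under 0.05 in edgeR. None of 8 dynein and adaptor genes was called by edgeR or DESeq2 at days 1, 5 and 7, with 1, 0 and 1 at an unadjusted p under 0.05. Over all 22378 genes 1595, 3064 and 3657 had such a p in edgeR at days 1, 5 and 7.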

How the data were processed

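The authors deposited a table of expected counts and one of TPM, with a column per cell. The submitters' processing notes name bcl2fastq and RSEM 1.2.22. An aligner and a genome build are not given in the labels used here. Of 31673 count rows 31426 had a symbol in the reference. TPM gave levels and shares of cells, and no cell was removed.

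Cells are not replicates, so counts were summed over the cells of a prefix and day and rounded. The 8 sums entered edgeR 4.0.16 (R 4.3.3) with TMM factors, filterByExpr and a quasi-likelihood fit on day, with 2 residual degrees of freedom. Nothing says that sets are separate cultures, so p-values measure only the spread between sets. Adjustment was over all genes tested. DESeq2 1.42.0, limma 3.58.1, other scalings, filters and left-out sets were tried, and the fit was run on simulated data. The simulated counts were drawn with the spread that the fit itself had estimated, also for days with 1 set. They therefore cannot show whether that spread holds on those days. Intervals are exact Clopper-Pearson. The intervals are on numbers of cells of a set, which share their prefix and day, so they cover counting error only. The labels name no molecular identifiers.

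By rule every mitotic and transport member is named, and set levels are given for members called and for the 4 most abundant of each group, and also for Kif11. The members, lists and tests were chosen with earlier results of these data known.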

Additional observations from a re-analysis of the deposited data

Results flagged for a closer look

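For 5 of the 28 members of at least 10 CPM in a set, the change from day 0 to day 3 went in opposite directions in the 2 prefixes by at least 0.5 on the log2 CPM scale. Kif15 was 0.74 in b1 and −0.64 in b2. Kif3a was 1.31 in b1 and −0.75 in b2, and Kif5c was 0.65 in b1 and −1.66 in b2. Kif24 was 1.89 in b1 and −0.51 in b2, and Kif21b was 3.07 in b1 and −0.53 in b2. With 1 set per prefix and day, the difference was not tested.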

How the results depend on the processing

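Of the named single-gene values under all alternatives, 315 kept direction and side of the threshold, 32 lost a call, 7 gained one and 10 changed sign. Most named values had no call in the main fit and could not lose one, so the 315 are mostly values that stayed without a call. The 32 all come from the few values that the main fit called. With DESeq2, the kinesins called numbered 2, 4, 1, 4 and 5 at days 1, 3, 4, 5 and 7. With limma on log2(TPM + 1) or all 10 sums, 0 were called on every day, to be read beside the calls over all genes given above. With the prefix as a replicate block (without day 4, 1 residual degree of freedom) also 0 were called at days 1, 3, 5 and 7. Of 22062 genes that fit called 4, 165, 284 and 422 at these days. Its mitotic medians were −1.07 at day 1 and 1.22 at day 7. The b2 minus b1 differences of days 0 and 3 correlated at 0.074 over 14670 genes. Each difference rests on 1 set per prefix, so this value cannot tell whether the prefixes pair the sets. Without the highest cell of each gene in each set (chosen after seeing the data), 0 kinesins were called at days 1 and 3. Over all genes that fit called 167 and 567 of 19076 at these days. Scaling each cell to the same total gave 2 kinesins at day 5, beside 1187 of all 22697 genes. Leaving out 1 set of day 0 or 3 moved the number of kinesins called in some cases, and the number called over all genes as well. It gave mitotic medians of −1.13 to −0.93, −0.17 to 0.32, 0.44 to 0.87, 0.97 to 1.11 and 1.32 to 1.48 at days 1, 3, 4, 5 and 7, and transport medians of −0.30 to 0.60 at day 7. The mitotic median was −0.59 (day 1) and 0.06 (day 3) with each cell scaled alike; −0.78, 0.22, 0.70 and 0.81 (days 1, 3, 4 and 5) with limma, whose median over all genes was 0.25 at day 3 and 0.21 at day 4; 0.42 and 1.21 (days 5 and 7) with all 10 sums; and −0.82, 0.64 and 1.42 (days 1, 4 and 7) and 0.45 (prefix) without the highest cells. The transport median of day 3 was 0.71 with limma. The share of day 4 cells with 6 or more mitotic kinesins was 52.5% at a TPM of 5. Signs changed for Kif23 at day 7 (0.02 with DESeq2, other factors and the block, 0.40 with all 10 sums, 0.09 with limma, 0.33 without the highest cells, −0.11 to 0.07 without 1 set), for Kif20a at day 7 (−0.22 with all 10 sums), and at day 1 without 1 set for Kif14 (−0.76 to 1.36) and Kif2c (−1.43 to 0.30). The causes were not tested. Depth limits the rarest members, which 1 to 4 cells of a set carried.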
